A study of Mus musculus with 90 samples.

Results

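The proteins of blood clotting and of the complement system are mostly made in the liver and secreted into plasma. Clotting factors are protease precursors that activate one another until thrombin, made from prothrombin (F2), cuts fibrinogen into fibrin. Plasma inhibitors and the plasmin system limit and dissolve the clot. Complement is a second protease cascade: pattern recognition or antibody leads to convertases that cleave C3 and C5, after which C6 to C9 assemble into a membrane pore. Several members also take part in the acute phase response, in which hepatocytes and other cells raise secreted defence proteins under inflammatory signals.

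The group described here holds 33 genes of these 2 systems, defined by a list of gene symbols with no measured value in its rule, out of 16593 genes annotated on the array. A probe was annotated to 31 of the 33. C3, the central complement component, and Cpb2, an inhibitor of clot dissolution, had none, so their levels were not analysed here. Both are among the members whose promoter sequences were searched below. The 31 measured genes comprised 10 of the clotting cascade (F2, F5, F7, F9, F10, F11, F12, F13b, Kng1 and Klkb1) and 7 inhibitors or genes of fibrinolysis (Plg, Serpinc1, Serpind1, Serpinf2, Serping1, Proc and Pros1). Of the 14 complement genes, 8 act in initiation or at the convertases (Mbl1, Mbl2, Masp1, Masp2, C2, C4b, Cfb and Cfi). Among these Cfi encodes an inhibitor, which inactivates C3b and C4b. The other 6 belong to the terminal pathway (Hc, which encodes C5, and C6, C8a, C8b, C8g and C9).

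RNA was taken 24 h after an intravenous injection of astatine-211 (211At), a radionuclide that emits alpha particles. The Balb/c mice gave 5 tissues: the liver, the lung, the spleen and the cortex and the medulla of the kidney. The activities compared were 1.8, 14 and 42 kBq, each against 0 kBq, with 3 single-colour Illumina bead arrays per tissue and activity. Arrays at 0.064 and 0.64 kBq also exist, and the authors' processed values show that they form an array set of their own (column medians between 164.8 and 165.5, against 117.5 to 117.9 on the 60 arrays of the other activities). At these activities an effect of the set and one of the injection cannot be told apart, so no comparison uses these 30 arrays. They entered the normalization, the detection filter, the choice of each gene's probe and the estimate of the spread. Nothing in the labels says that the 3 arrays of a group came from separate animals, so every p-value reflects the array-to-array spread alone, and that spread may be technical.

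Between 11229 and 14456 probes were detected on an array. Replicate arrays correlated at between 0.974 and 0.997. Levels below are log2 intensities after background correction, with quantile normalization within a tissue. A difference is the irradiated mean minus the 0 kBq mean on that scale, and a gene was said to rise or fall when its adjusted p from limma was under 0.05 over all probes of the tissue. Levels of different genes come from different probes and are not set against each other. Whether the arrays of a group overlap those of another is given as a description only. No share of all probes is given beside it, and it is not read as support for a change.

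In the unirradiated tissues the group was a liver group. With all 90 arrays normalized together, 31 of 31 members were higher in liver than in the mean of the other 4 tissues, where 23.9% of all 19538 probes were. The median difference was 5.63 over the members and -0.07 over all probes. With the arrays of any one replicate number left out, 30 to 31 members were higher. Liver held the highest mean for 29 of the 31. The exceptions were Pros1, which encodes protein S, a cofactor of activated protein C, and C6. Pros1 averaged 9.88 ± 0.11 in liver, against 10.67 ± 0.39 in lung (SD, n = 3 each), and the liver arrays lay below all the lung arrays. Its liver level exceeded the mean of the other 4 tissues by 0.35 (limma adjusted p = 0.0321). C6 averaged 8.44 ± 0.07 in liver, against 9.05 ± 0.09 in spleen and 8.98 ± 0.09 in lung, and the spleen and lung arrays overlapped.

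**Figure D1:**
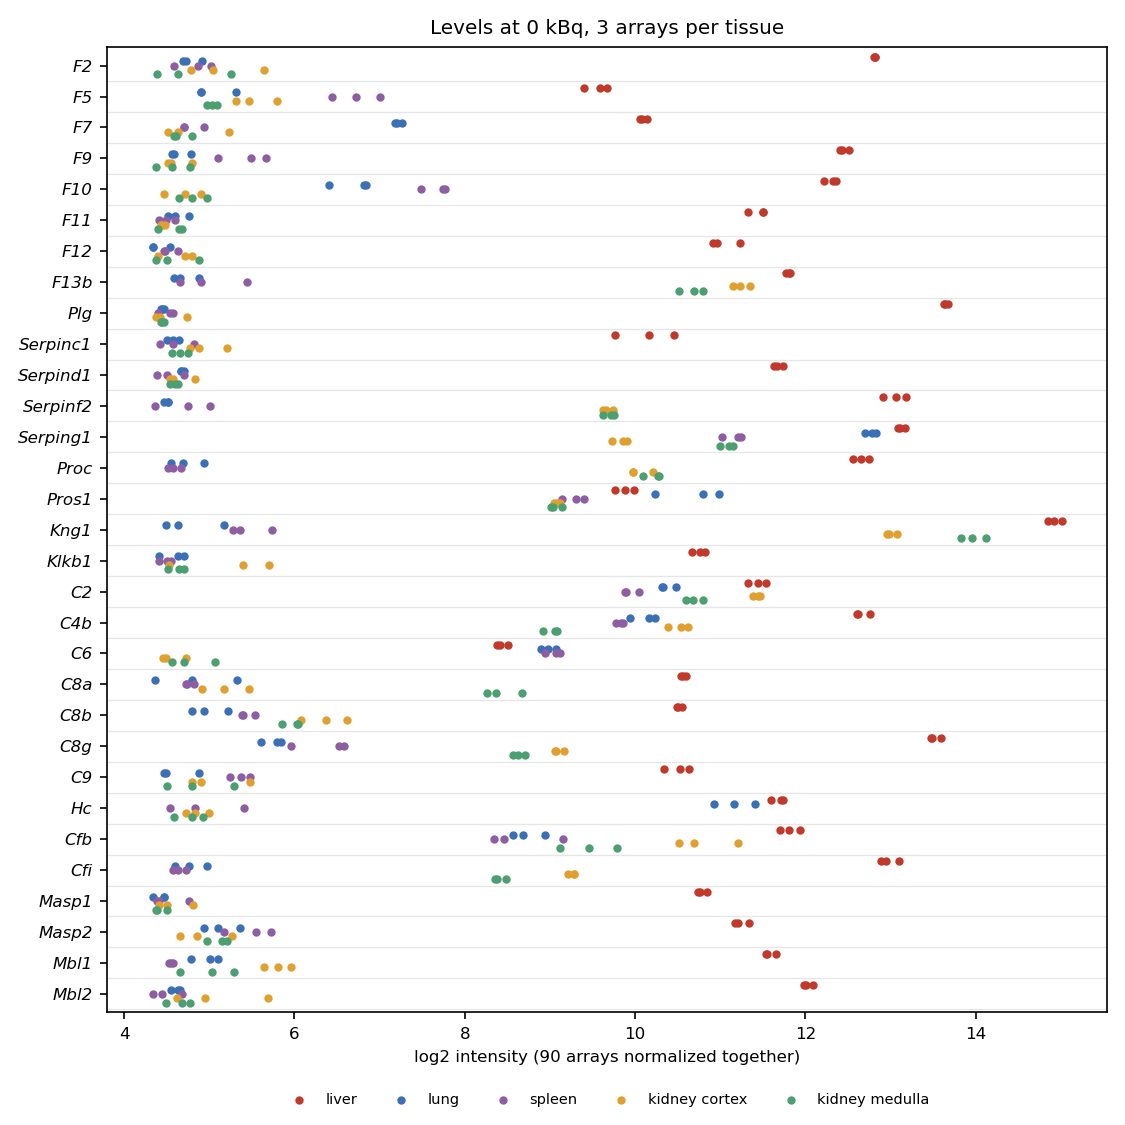
Log2 intensity (horizontal axis) of the 31 measured genes (rows) on the 3 arrays of each tissue at 0 kBq, with colours for the tissues. The liver mean is farthest right for all genes except Pros1 and C6, and F13b, Kng1, C2 and Hc have a second tissue close to liver.

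Several members had a second site of expression. Hc reached 11.17 ± 0.24 in lung, against 11.68 ± 0.07 in liver, while it was undetected on the kidney cortex and medulla arrays at 0 kBq. F13b, the carrier subunit of factor XIII, which crosslinks fibrin, averaged 11.24 ± 0.10 in kidney cortex and 10.67 ± 0.14 in kidney medulla, against 11.80 ± 0.03 in liver. Kng1, the kininogen from which bradykinin is released, was also high in both kidney zones. C2, the protease of the classical and lectin convertase, averaged 11.43 ± 0.04 in kidney cortex and 11.44 ± 0.11 in liver, and these arrays overlapped. C8a, the alpha subunit of C8, separated the kidney zones: its 3 medulla arrays gave 8.37, 8.27 and 8.67, against 5.17, 5.47 and 4.92 on the cortex arrays. All medulla arrays were above all cortex arrays.

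The genes F13b and C8a were both called in kidney, as given below. They are among the 5 of 24 members with a promoter sequence here that hold the letters GTTAAT on either strand. This share was 20.8%, with 7.1% of 32851 mouse promoters of the same length. GTTAAT is a core letter run of the binding site of hepatocyte nuclear factor 1, a transcription factor active in liver and kidney. The other 3 were F2, C8b and Hc. Pros1, also called in kidney, had a promoter sequence without this match. C4b, C2, Cfb and Cfi, called there too, had no promoter sequence here and were not searched. The sequences below run from 250 bases before to 50 bases after the RefSeq start site (build GRCm38.p6, 5′ to 3′ on the gene's strand), with the match, GTTAAT or its reverse complement ATTAAC, in capitals. Both genes were picked for printing after their values were seen, and a match is a description and not a shown binding site.
C8a, chr4:104876349-104876648, minus strand, match upstream of the start site: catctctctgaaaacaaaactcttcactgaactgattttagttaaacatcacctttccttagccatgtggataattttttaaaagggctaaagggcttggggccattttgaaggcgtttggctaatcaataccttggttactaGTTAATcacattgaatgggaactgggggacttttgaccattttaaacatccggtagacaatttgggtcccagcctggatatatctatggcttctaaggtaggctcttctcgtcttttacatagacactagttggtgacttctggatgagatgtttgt
F13b, chr1:139501457-139501756, plus strand, match upstream of the start site: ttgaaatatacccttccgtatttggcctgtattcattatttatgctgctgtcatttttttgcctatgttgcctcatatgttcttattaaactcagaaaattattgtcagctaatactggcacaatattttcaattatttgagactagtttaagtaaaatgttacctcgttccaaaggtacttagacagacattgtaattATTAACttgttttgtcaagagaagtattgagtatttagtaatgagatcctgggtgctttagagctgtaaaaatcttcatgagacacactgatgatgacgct

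The same windows were searched for 3 more motifs on both strands. A STAT palindrome, TTCNNNGAA, the site of the factors that carry interleukin 6 signals, was in 16.7% of the 24 members' promoters and 8.3% of all promoters. It was found in F9, Pros1, C8a and Masp2. The C/EBP motif TTGCNNAA was in 29.2% and 10.8%, and the HNF4 motif CAAAGTCCA in 0 of 24 and 0.475%. The C/EBP matches include those of C3 and Cpb2, which had no array probe. C8a was the member that held both GTTAAT and the STAT palindrome.

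In liver no member rose or fell at any of the 3 activities. At 1.8 kBq the count was 0 of 31, where 3.92% of all tested probes were called, at 14 kBq 0 of 31 with 1.3% called, and at 42 kBq 0 of 31 with 3.53% called. With unadjusted p under 0.05 the counts were 5, 2 and 5. Counts at an unadjusted p, here and in all later passages, have no share of all probes at that rule beside them. They are therefore not read as a result about the members or the further genes. The median difference of the members was 0.13 at 1.8 kBq, 0.10 at 14 kBq and 0.00 at 42 kBq, beside -0.03, -0.01 and -0.02 over the 9472 genes tested. All 31 members were detected on all 18 liver arrays. For the reported probes, all 31 of the 95% intervals lay inside a 2-fold change in either direction at each of the 3 activities. The highest upper limit was 0.94 at 14 kBq for C8b, a subunit of C8. These intervals reflect the array-to-array spread alone. A dimmer Kng1 probe, given below, differed by 1.09 at 1.8 kBq.

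**Figure D2:**
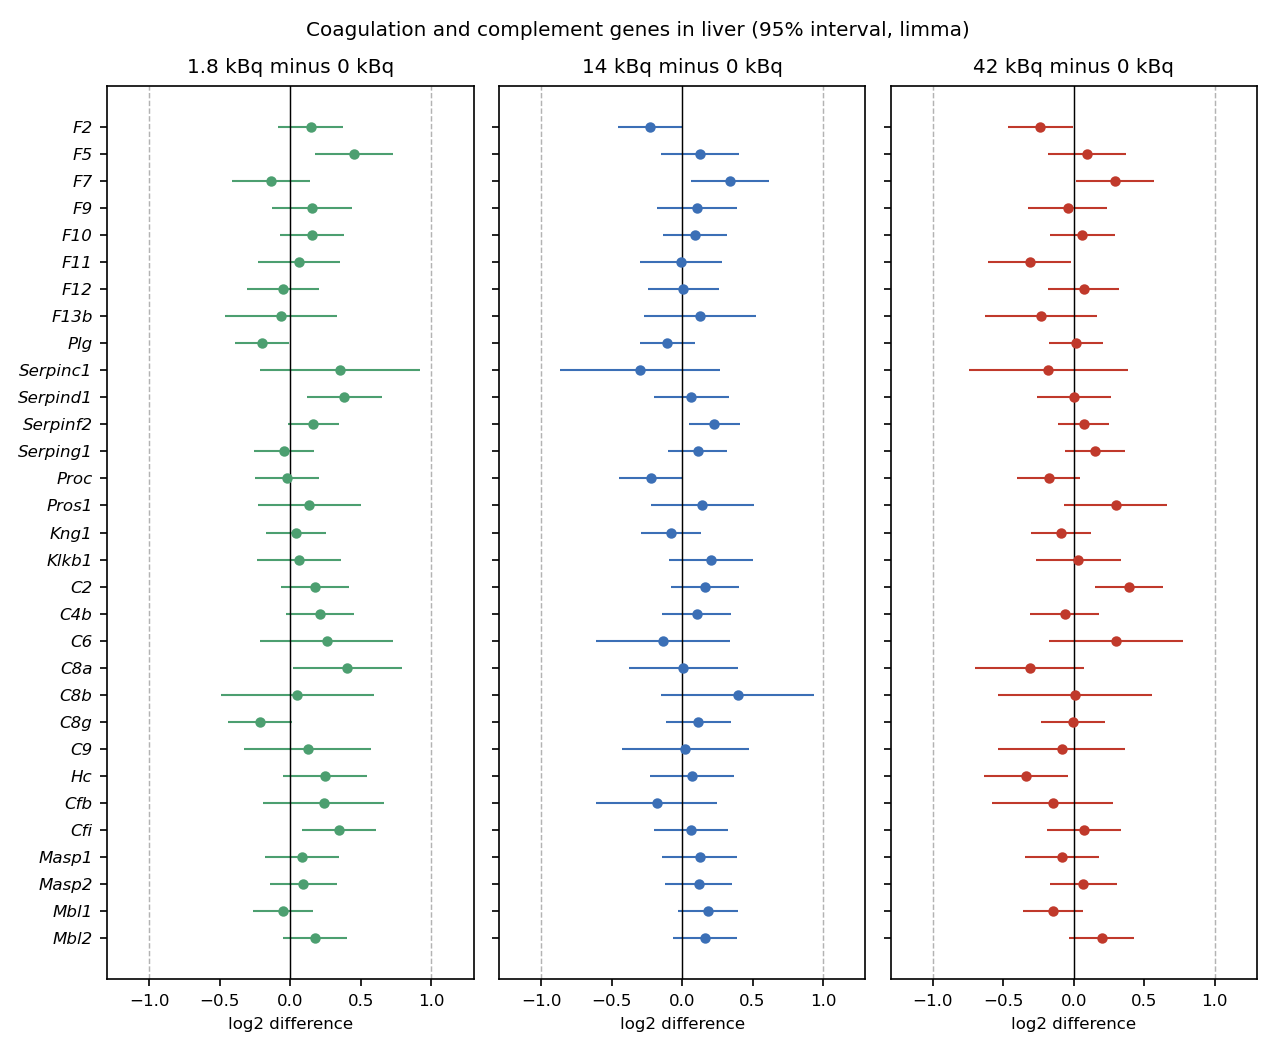
Log2 difference from 0 kBq (horizontal axis, point) with its 95% interval from limma (line) for the 31 genes in liver, in one panel for each activity, with dashed lines at a 2-fold change. Every interval ends before the dashed lines, and C8b and Serpinc1 have the longest.

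The ranges in liver were similar for the 4 roles. The clotting cascade had 10 measured members with differences between -0.14 and 0.45 at 1.8 kBq, between -0.23 and 0.34 at 14 kBq and between -0.31 and 0.29 at 42 kBq. The 7 inhibitors and fibrinolysis genes lay between -0.20 and 0.38, between -0.30 and 0.23, and between -0.18 and 0.30 at these activities. The 8 complement genes of initiation and the convertases lay between -0.05 and 0.34, between -0.18 and 0.18, and between -0.15 and 0.39. The 6 terminal complement genes lay between -0.22 and 0.40, between -0.14 and 0.39, and between -0.34 and 0.30. C4b, which encodes complement C4, gave 12.91, 13.02 and 13.15 at 1.8 kBq, against 12.76, 12.77 and 12.93 at 0 kBq. Its arrays at 14 kBq gave 12.86, 12.99 and 12.92, and those at 42 kBq 12.67, 12.74 and 12.85. Each irradiated group overlapped the 0 kBq arrays. The C4b probe may also read C4a, its near-identical mouse copy, which was not tested.

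The members nearest to the threshold were F5 and Serpind1 at 1.8 kBq and C2 at 42 kBq, and these were chosen after their values were seen. F5, which encodes the cofactor of activated factor X, gave 9.56, 9.59 and 9.62 at 1.8 kBq, against 8.97, 9.27 and 9.18 at 0 kBq. All its 1.8 kBq arrays were above the 0 kBq arrays, with a difference of 0.45 ± 0.13 (SE, adjusted p = 0.0592). Serpind1, heparin cofactor II, gave 12.26, 11.83 and 12.05 at 1.8 kBq, against 11.73, 11.65 and 11.61 at 0 kBq, again with no overlap and a difference of 0.38 ± 0.13 (adjusted p = 0.0956). C2 gave 11.74, 11.82 and 11.76 at 42 kBq, against 11.25, 11.38 and 11.51 at 0 kBq. These groups did not overlap either, and the difference was 0.39 ± 0.12 (adjusted p = 0.0682).

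The count of 0 depends on the 0.064 and 0.64 kBq arrays, whose members had a median SD of 0.217 and 0.234 in liver, against 0.0696 to 0.0985 in the 4 other groups. Without those arrays 4 members rose at 1.8 kBq, namely F5, Serpind1, Cfi and C8a (14.7% of all probes called), and 2 at 14 kBq, namely F7 and C8b (7.94% called). At 42 kBq 7 of 31 were called (12.5% of all probes). Of these F7, Pros1 and C2 were higher and F2, F11, Hc and C8a were lower. The largest of these 13 differences was 0.46 for F5. Dimmer probes of 3 further genes passed at 1.8 kBq where the reported probe of the same gene did not: 1 of F12 (difference 0.73, adjusted p = 0.0375), 1 of Plg (0.70, adjusted p = 0.0273) and 2 of Kng1 (0.43, adjusted p = 0.0419, and 1.09, adjusted p = 0.0496).

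The terminal complement genes C8a and Hc were lower in liver at 42 kBq than at 1.8 kBq, the only members called between these activities (2 of 31, with 4.46% of all probes called). C8a gave 10.05, 10.01 and 10.05 at 42 kBq, against 10.96, 10.65 and 10.66 at 1.8 kBq. The groups did not overlap, and the 0 kBq arrays, at 10.40, 10.32 and 10.34, lay between them. The difference of 42 minus 1.8 kBq was -0.72 ± 0.19 (SE, adjusted p = 0.0290). Hc gave 11.22, 11.52 and 11.26 at 42 kBq, against 11.84, 12.03 and 11.88 at 1.8 kBq, with the 0 kBq arrays at 11.57, 11.70 and 11.73 between them. Its difference was -0.58 ± 0.14 (adjusted p = 0.0211). With any one array left out, 0 to 1 of the 2 calls remained, and without the 0.064 and 0.64 kBq arrays 11 members were called (14.7% of all probes).

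Some further genes of these systems and of the acute phase passed in liver, where 3.92% of all probes were called at 1.8 kBq, 1.3% at 14 kBq and 3.53% at 42 kBq. Of 17 tested further coagulation genes, Hrg, histidine-rich glycoprotein, rose at 1.8 kBq by 0.55 ± 0.14 (SE, adjusted p = 0.0349), and 0 passed at 14 or 42 kBq (3 and 4 at an unadjusted p under 0.05). Of 14 further complement genes, C1s1, a protease of the C1 complex, rose by 0.76 at 1.8 kBq and 0.63 at 42 kBq, and C4bp, a C4b inhibitor, rose by 0.50 at 1.8 kBq. Of 22 acute phase and interleukin 6 genes, 3 rose and 1 fell at 1.8 kBq. Lcn2, lipocalin 2, rose by 1.44 ± 0.37 (adjusted p = 0.0327), Il6ra, the interleukin 6 receptor, by 0.81 and Fgl1, a secreted fibrinogen-like protein, by 0.45. Hamp, the iron hormone hepcidin, fell by 0.39. At 14 kBq 0 of 22 passed, with 3 at an unadjusted p under 0.05, and at 42 kBq Il6ra rose by 0.89.

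Of 11 tested hepatocyte transcription factors, 1 fell at 1.8 kBq, 1 rose and 1 fell at 14 kBq, and 2 rose and 1 fell at 42 kBq, beside the same shares of all probes. Cebpb, a C/EBP factor of the acute phase response, rose by 0.81 ± 0.13 at 14 kBq (adjusted p = 0.00169) and by 0.92 ± 0.13 at 42 kBq (SE, adjusted p = 0.000178). Prox1 fell by 0.74 at 14 kBq and by 0.49 at 42 kBq, Nr1h4, the bile acid receptor, rose by 0.44 at 42 kBq, and Foxa2 fell by 0.92 at 1.8 kBq. The log2 of the summed intensities of 9 of the 10 hepatocyte markers ranged from 16.94 to 17.04 at 1.8 kBq and from 17.004 to 17.09 at 42 kBq, against 16.99 to 17.08 at 0 kBq. At 14 kBq it ranged from 16.93 to 17.04. Fabp1 was undetected in these groups, and Tat at 1.8 and 14 kBq. That of all 6 neutrophil markers ranged from 11.77 to 12.01 at 1.8 kBq, from 9.86 to 10.17 at 14 kBq and from 12.60 to 12.63 at 42 kBq, against 11.59 to 11.62 at 0 kBq. For 7 of the 9 macrophage markers the range was 12.38 to 12.49 at 0 kBq. It was 12.725 to 12.734 at 1.8 kBq, 12.29 to 12.32 at 14 kBq and 12.67 to 12.83 at 42 kBq. Csf1r had no probe and Cd5l was undetected. For 2 of the 10 exocrine pancreas markers the range was 8.24 to 8.72 at 1.8 kBq, against 7.22 to 7.62 at 0 kBq. The rest were undetected in both or had no probe. The part of these cells in the results was not tested. In RNA of whole tissue, fewer cells of a type and less RNA per cell cannot be told apart.

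In kidney medulla at 1.8 kBq C4b, C2, Cfb, Cfi and Pros1 rose and F13b fell. Of the 20 members tested, 5 rose and 1 fell, where 26.6% of all tested probes were called in this comparison, a share near that of the members (13.4% rose and 13.3% fell). C4b, C2, Cfb and Cfi were 4 of the 6 tested complement genes of initiation and the convertases, and Cfi encodes an inhibitor. Of the same 6, Mbl1 differed by 0.32 (adjusted p = 0.305) and Masp2 by -0.31 (adjusted p = 0.374). Pros1 rose among the 4 inhibitors and fibrinolysis genes, F13b fell among the 4 genes of the clotting cascade, and 0 of the 6 terminal complement genes passed. The median difference was 0.01 over the 20 members and 0.05 over all 10455 genes tested.

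C4b had the largest difference of the members. It gave 10.70, 10.83 and 10.79 at 1.8 kBq, against 9.24, 9.22 and 9.08 at 0 kBq. The 1.8 kBq arrays were far above the 0 kBq arrays, and the difference was 1.59 ± 0.26 (SE), or 3.01-fold (adjusted p = 6.43e-05). At 14 kBq C4b gave 9.96, 9.87 and 10.13 and at 42 kBq 9.47, 9.60 and 9.63, all above the 0 kBq arrays. These differences of 0.81 (adjusted p = 0.188) and 0.39 (adjusted p = 0.432) did not pass. Without the 0.064 and 0.64 kBq arrays they did, at 0.81 (adjusted p = 3.7e-06) and 0.39 (adjusted p = 0.00667). C4b was lower at 42 kBq than at 1.8 kBq by -1.20 ± 0.26 (adjusted p = 0.00356).

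Cfi encodes factor I, the protease that inactivates C3b and C4b. It gave 9.08, 9.37 and 9.41 at 1.8 kBq, against 8.56, 8.67 and 8.53 at 0 kBq. No arrays overlapped, and the difference was 0.70 ± 0.23 (SE, adjusted p = 0.0275). Cfb, factor B of the alternative pathway convertase, gave 10.01, 9.98 and 10.29 at 1.8 kBq, against 9.61, 9.28 and 9.93 at 0 kBq. Its arrays did not overlap but the 0 kBq arrays were spread widely, and the difference was 0.48 ± 0.18 (adjusted p = 0.0489). Both calls were lost in 5 of 6 fits that left out 1 array, with adjusted p up to 0.0926 for Cfi and up to 0.262 for Cfb. The Cfb call was also lost with no background correction, an offset of 50, no detection filter and the authors' values (adjusted p between 0.053 and 0.0703).

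C2 and Pros1, named here after their values were seen, rose by similar amounts. C2 gave 11.32, 11.13 and 11.34 at 1.8 kBq, against 10.72, 10.91 and 10.80 at 0 kBq. The groups were apart, with a difference of 0.45 ± 0.11 (SE, adjusted p = 0.00283). Pros1 gave 9.79, 9.69 and 9.52 at 1.8 kBq, against 9.30, 9.17 and 9.20 at 0 kBq. They were apart too, with a difference of 0.44 ± 0.11 (adjusted p = 0.00332). Neither passed at 14 or 42 kBq, and at 42 kBq both were lower than at 1.8 kBq, C2 by -0.44 (adjusted p = 0.01) and Pros1 by -0.41 (adjusted p = 0.0172).

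**Figure D3:**
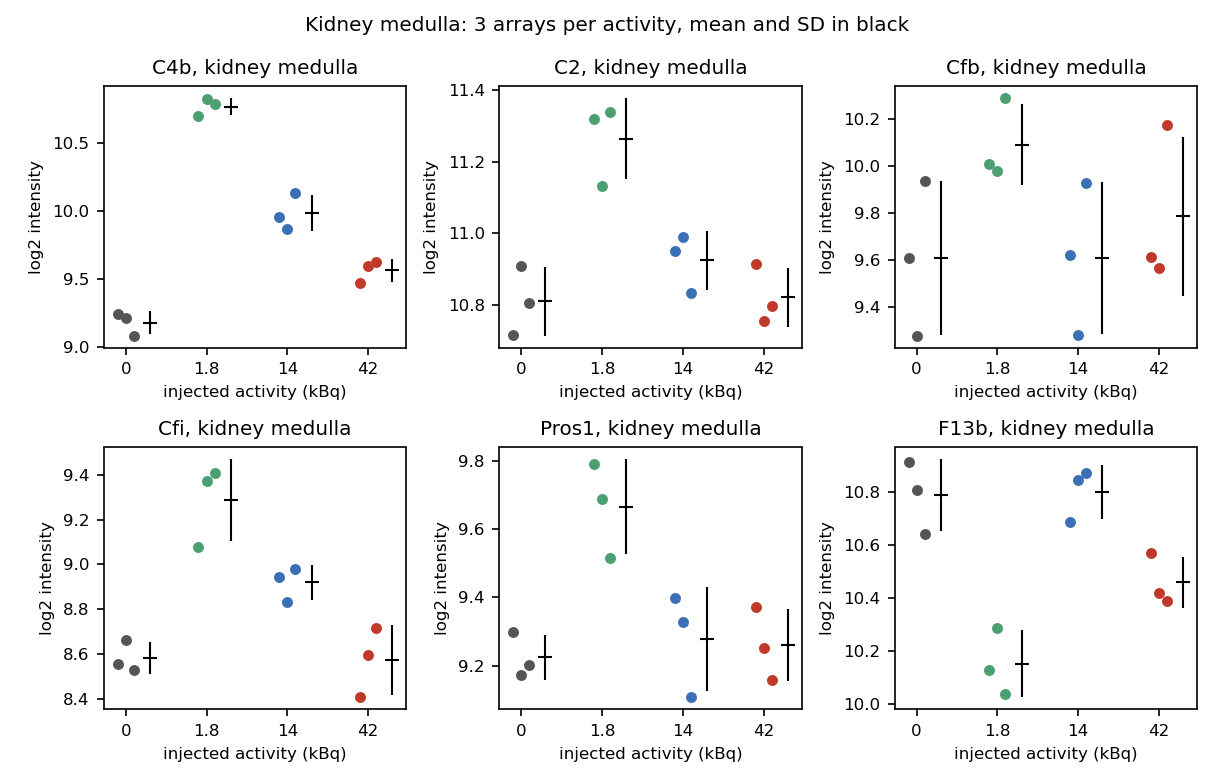
Log2 intensity (vertical axes, each with its own range that does not start at 0) of 6 genes on the 3 kidney medulla arrays of each activity in kBq (horizontal axis), with the mean and SD in black. The 1.8 kBq arrays stand above the 0 kBq arrays for C4b, C2, Cfb, Cfi and Pros1 and below them for F13b.

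F13b gave 10.13, 10.29 and 10.04 at 1.8 kBq, against 10.91, 10.81 and 10.64 at 0 kBq. All 1.8 kBq arrays were lower, and the difference was -0.64 ± 0.10 (SE), a 1.56-fold fall (adjusted p = 3.43e-05). At 14 kBq the arrays, at 10.69, 10.85 and 10.87, overlapped those at 0 kBq. At 42 kBq they were lower again, at 10.57, 10.42 and 10.39, by -0.33 ± 0.10 (adjusted p = 0.0488). This last call, the only one of 20 members at 42 kBq (5.05% of all probes called), was lost in 5 of 6 fits that left out 1 array. No member passed at 14 kBq (0 of 20, with 0.438% of all probes called), where 4 had an unadjusted p under 0.05.

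Between 42 and 1.8 kBq in medulla 5 of 20 members were called, where 8.62% of all probes were. Beside the falls of C4b, C2 and Pros1, F13b was higher at 42 kBq by 0.31 (adjusted p = 0.0488) and C8a by 0.61 (adjusted p = 0.0184). C8a gave 8.84, 8.73 and 8.91 at 42 kBq, against 7.92, 8.30 and 8.44 at 1.8 kBq, with no overlap. With 1 array left out the call of C4b held in all 6 fits, while that of F13b was lost in 5, Pros1 in 4, C8a in 3 and C2 in 2. F13b was lost too with no background correction, an offset of 50, no detection filter and the authors' values (adjusted p between 0.0501 and 0.0719). Without the 0.064 and 0.64 kBq arrays the counts in medulla were 9 at 1.8 kBq (33.4% of all probes), 2 at 14 kBq (2.54%), 3 at 42 kBq (10.5%) and 8 between 42 and 1.8 kBq (14.4%). Probes of 1 gene disagreed in 2 cases at 1.8 kBq. A dimmer probe of Proc, protein C, fell by 0.92 (adjusted p = 3.62e-05) where the reported probe differed by -0.33 (adjusted p = 0.0688). A dimmer probe of Kng1 rose by 0.52 (adjusted p = 0.00751) where the reported probe differed by 0.07 (adjusted p = 0.652).

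Of 15 tested acute phase genes in medulla 9 rose at 1.8 kBq and none fell, where 13.4% of all probes rose. Lcn2 rose by 3.28 ± 0.17 (SE), or 9.69-fold (adjusted p = 6.65e-12). Serpina3n, a serine protease inhibitor, rose by 2.08 ± 0.21 and Socs3, the feedback inhibitor of interleukin 6 signals, by 1.64 ± 0.18. Of 16 further coagulation genes 4 rose and 2 fell, a share near the 26.6% of all probes called: Fga, the fibrinogen alpha chain, by 1.17 and Serpina10, the protein Z-dependent inhibitor of factor X, by 1.05 were the largest rises. S100a10 rose by 0.76, while Ggcx, the vitamin K-dependent carboxylase, fell by 0.71. Among 11 further complement genes, tested beside this same 26.6%, calls went in both directions. Clu, clusterin, which blocks the membrane pore, rose by 1.52 ± 0.15 (adjusted p = 1.32e-07). The membrane regulators Cd55 and Cr1l fell by 0.68 each. At 14 and 42 kBq 0 of the 15 acute phase genes passed, with 3 at an unadjusted p under 0.05 at each activity.

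Cell type markers of the medulla also stood apart at 1.8 kBq, given here as the log2 of the intensities summed over the tested markers of a list. The sum over 6 of the 7 proximal tubule markers ranged from 15.50 to 15.58 at 1.8 kBq, against 15.87 to 15.97 at 0 kBq, and Cubn had no probe. For 2 of 5 fat markers the range was 8.41 to 8.71, against 5.98 to 6.27, with Plin1 and Retn undetected in both and no probe of Cfd. For 4 of 6 neutrophil markers it was 8.69 to 8.76, against 8.10 to 8.23, with Ngp and Retnlg undetected in both. For 2 of 3 mesothelium markers it was 8.93 to 9.10, against 8.29 to 8.46, with Msln undetected in both. For 3 of 10 hepatocyte markers it was 10.85 to 10.98, against 11.32 to 11.41. Of the other 7, Alb, Cps1, Fabp1 and Tat were undetected in both groups, while Apoa1, Apoh and Ahsg were undetected at 0 kBq and detected on at least 1 array at 1.8 kBq. The part of the other cell types in these results was not tested.

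In kidney cortex a single member, C8a, changed by more than 2-fold. C8a gave 8.21, 7.57 and 7.60 at 42 kBq, against 5.15, 5.45 and 4.91 at 0 kBq, where it was detected on 2 of the 3 arrays. All 42 kBq arrays were far above, and the difference was 2.63 ± 0.43 (SE), or 6.17-fold (adjusted p = 0.00126). The arrays gave 5.66, 5.35 and 5.51 at 1.8 kBq and 6.61, 6.18 and 6.33 at 14 kBq, so the means were ordered by activity. The differences at 1.8 kBq, 0.34 (adjusted p = 0.792), and at 14 kBq, 1.20 (adjusted p = 0.377), did not pass. Without the 0.064 and 0.64 kBq arrays the 14 kBq difference, 1.18, passed (adjusted p = 0.00272).

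At 42 kBq C8a was 1 of 21 members called in cortex, where 1.7% of all probes were. Its call held in all 6 fits that left out 1 array, with differences between 2.42 and 2.77. The size depends on the background treatment, since the probe lay near background at 0 kBq: the difference was 1.24 with no background correction and 1.18 in the authors' deposited values, and passed in both. Of the other C8 subunits, C8b differed by -0.27 (adjusted p = 0.75) and C8g by 0.09 (adjusted p = 0.889) at 42 kBq. C8a at 42 kBq was also higher than at 1.8 kBq, by 2.29 ± 0.43 (adjusted p = 0.00358).

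**Figure D4:**
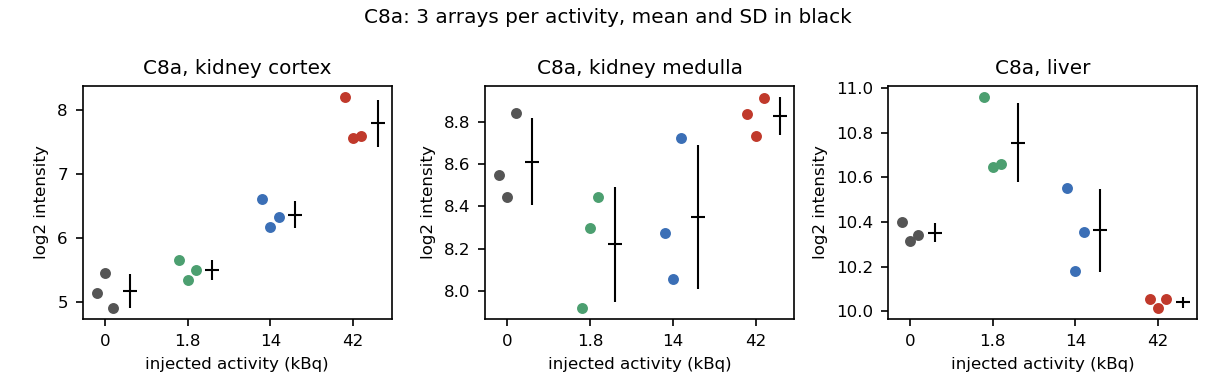
Log2 intensity of C8a (vertical axes, each with its own range that does not start at 0) on the 3 arrays of each activity in kBq (horizontal axis) in kidney cortex, kidney medulla and liver, with the mean and SD in black. In cortex the means go up with activity to 7.80 at 42 kBq, while in liver the 42 kBq arrays are the lowest.

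The response of C8a differed between tissues in a test of the difference itself, from 1 fit of all arrays. At 42 kBq the cortex response exceeded the liver response by 2.79 ± 0.39 (SE, adjusted p = 3.95e-07), with 1 of 21 members called and 2.17% of all probes. The medulla response was below the cortex response by -2.31 ± 0.39 (adjusted p = 3.17e-05), with 1 of 18 members and 1.53% of all probes. C4b at 1.8 kBq responded more in medulla than in liver, by 1.45 ± 0.34 (adjusted p = 0.00158), with 1 of 20 members and 16% of all probes called. The medulla and cortex responses of C4b differed by 0.78 ± 0.34 (adjusted p = 0.130). In the other 12 of the 15 such comparisons no member passed, where between 0.277% and 10.9% of all probes were called. With the arrays of any one replicate number left out, the calls of members in the 15 comparisons numbered 2.

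At 1.8 kBq C2 was the member of 21 that rose in cortex (2% of all probes called). It gave 12.13, 12.04 and 11.98 at 1.8 kBq, against 11.61, 11.64 and 11.55 at 0 kBq. The groups were apart, with a difference of 0.45 ± 0.10 (SE, adjusted p = 0.0281). The call was lost in all 6 fits that left out 1 array (adjusted p between 0.0507 and 0.117). No label says that the array numbers pair these arrays, and they were taken to do so from correlations only. With the number as a block, C2 and Cfi were called (2.64% of all probes). C2 was lower at 42 kBq than at 1.8 kBq by -0.37 (adjusted p = 0.0495), a call lost in all 6 fits that left out 1 array, with 75th percentile scaling and with no detection filter. With C8a 2 of 21 members were called between these activities (4.23% of all probes). Without the 0.064 and 0.64 kBq arrays 7 were (11.3%).

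At 14 kBq C4b in cortex gave 10.69, 10.73 and 10.65 and at 42 kBq 10.87, 10.96 and 10.91, against 10.53, 10.69 and 10.77 at 0 kBq. The 42 kBq arrays were above those at 0 kBq and the 14 kBq arrays among them, with differences of 0.03 at 14 kBq (adjusted p = 0.995) and 0.25 at 42 kBq (adjusted p = 0.819). C4b and Cfi in cortex had larger differences at 1.8 kBq that did not pass. C4b gave 11.56, 11.51 and 11.53 at 1.8 kBq, against 10.53, 10.69 and 10.77 at 0 kBq, a difference of 0.87 ± 0.26 (SE, adjusted p = 0.0991). Cfi, named after its values were seen, gave 10.15, 10.21 and 10.42, against 9.32, 9.39 and 9.39, a difference of 0.89 ± 0.24 (adjusted p = 0.0618). In both genes all 1.8 kBq arrays were above the 0 kBq arrays. Without the 0.064 and 0.64 kBq arrays both rose, in a count of 6 of 20 at 1.8 kBq (9.02% of all probes), 1 at 14 kBq (2.76%) and 4 at 42 kBq (5.58%). In the full fit no member passed at 14 kBq (0 of 21, with 0.119% of all probes called), where 2 had an unadjusted p under 0.05.

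Further genes passed in cortex, where 2% of all probes were called at 1.8 kBq and 1.7% at 42 kBq. At 1.8 kBq 7 of 19 acute phase genes rose and none fell, Lcn2 by 3.60 ± 0.28 (SE, adjusted p = 4.37e-07), Serpina3n by 1.40 and Hpx, the haem-binding hemopexin, at least 1.74-fold against undetected 0 kBq arrays. Of 16 further coagulation genes 4 rose and 1 fell at 1.8 kBq. Serpina10 rose by 3.93 ± 0.46 (adjusted p = 9.35e-05), Fga by 2.95 and Ahsg, fetuin A, at least 2.23-fold. At 42 kBq 2 of the 16 coagulation genes rose, Serpina10 by 2.66 and Plau, the urokinase plasminogen activator, by 1.31, and 1 of the 19 acute phase genes, Cp, ceruloplasmin, by 1.29. None of 10 further complement genes passed at any of the 3 activities, with 2, 1 and 0 at an unadjusted p under 0.05.

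Marker levels stood apart beside these results, again as the log2 of summed intensities. The sum over 4 of the 5 collecting duct and loop of Henle markers in cortex ranged from 14.28 to 14.48 at 0 kBq. It was 14.62 to 14.74 at 1.8 kBq, 14.74 to 14.79 at 14 kBq and 14.97 to 15.01 at 42 kBq. Avpr2 was undetected at 0, 1.8 and 14 kBq. Like the C8a means, the ranges of this sum were ordered by activity. That over 6 of the 7 proximal tubule markers ranged from 15.88 to 15.91 at 1.8 kBq and from 16.15 to 16.30 at 42 kBq, against 16.07 to 16.14 at 0 kBq, and Cubn had no probe. That over 6 of the 10 hepatocyte markers ranged from 11.08 to 11.42 at 1.8 kBq and from 11.70 to 11.82 at 42 kBq, against 11.11 to 11.28 at 0 kBq. Fabp1 and Tat were undetected in all 3 groups. Apoa1, Apoh and Ahsg were undetected at 42 and 0 kBq but not at 1.8 kBq, Serpina1a at 1.8 and 0 kBq but not at 42 kBq, Cps1 at 42 and 0 kBq but not at 1.8 kBq, and Alb at 1.8 and 42 kBq but not at 0 kBq. The sum over 4 of the 6 neutrophil markers ranged from 7.87 to 8.63 at 1.8 kBq, where Camp and Ngp were undetected, against 9.09 to 9.13 at 0 kBq, where Ngp and Retnlg were. The sum over Adipoq and Cidec, 2 of the 5 fat markers, was 5.50 to 5.73 at 1.8 kBq, where both were undetected, against 7.36 to 7.82 at 0 kBq. The part of these cell types in the cortex results was not tested.

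In spleen no member passed. The counts were 0 of 21 at 1.8 kBq (2.8% of all probes called), at 14 kBq (3.3%) and at 42 kBq (0.529%), with 4, 6 and 1 at an unadjusted p under 0.05. Between 42 and 1.8 kBq the count was also 0 (0.712% of all probes), with 0 at an unadjusted p under 0.05. C4b gave 10.10, 9.95 and 10.17 at 1.8 kBq and 10.06, 10.22 and 10.22 at 14 kBq, against 9.64, 9.71 and 9.69 at 0 kBq. Both groups lay above the 0 kBq arrays, by 0.39 ± 0.19 (SE, adjusted p = 0.324) and by 0.48 ± 0.19 (adjusted p = 0.181). At 42 kBq C4b differed by 0.16 (adjusted p = 0.893). Without the 0.064 and 0.64 kBq arrays 3 of 17 members, C2, C4b and C6, rose at 1.8 kBq (8.87% of all probes) and, with a fall of F5, at 14 kBq (11.4%).

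The spleen arrays carried large differences of another kind beside these. The log2 of the summed intensities of 8 of the 10 exocrine pancreas markers ranged from 17.15 to 17.26 at 1.8 kBq, from 13.09 to 13.28 at 14 kBq and from 16.09 to 16.19 at 42 kBq, against 7.63 to 7.67 at 0 kBq, where 7 of the 8 were undetected. Pnlip and Ela1 had no probe under these symbols. Vtn, vitronectin, an inhibitor of the complement pore, rose by 3.00 ± 0.17 at 1.8 kBq (SE, adjusted p = 4.07e-11) and by 0.81 at 42 kBq. Itih4, an acute phase protein, rose by 3.07 and 1.35 at these activities, and Serpina10 by 1.16 at 1.8 kBq. The part of pancreas in these values was not tested.

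In lung no member passed either. The counts were 0 of 18 at 1.8 kBq (0.374% of all probes called), at 14 kBq (0.43%) and at 42 kBq (0.679%), with 0, 1 and 1 at an unadjusted p under 0.05. Between 42 and 1.8 kBq it was 0 as well (1.36% of all probes), with 3 at an unadjusted p under 0.05. C4b gave 10.62, 10.65 and 10.66 at 42 kBq, against 10.17, 10.43 and 10.38 at 0 kBq, a difference of 0.32 ± 0.15 (SE, adjusted p = 0.779) with no overlap. It gave 10.35, 10.49 and 10.26 at 1.8 kBq and 10.38, 10.26 and 10.35 at 14 kBq, overlapping the 0 kBq arrays, and these differences of 0.04 and 0.00 changed sign with the scaling. The largest difference of a member was in F10, factor X, at 14 kBq, with 6.47, 6.50 and 6.11, against 6.83, 7.23 and 7.25 at 0 kBq. These arrays did not overlap, and the difference of -0.74 ± 0.23 (adjusted p = 0.177) passed only without the 0.064 and 0.64 kBq arrays (adjusted p = 0.00713, with 5.98% of all probes called). Among the further coagulation genes F13a1, the catalytic subunit of factor XIII, rose by 1.298 ± 0.20 at 1.8 kBq (adjusted p = 0.00349).

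**Figure D5:**
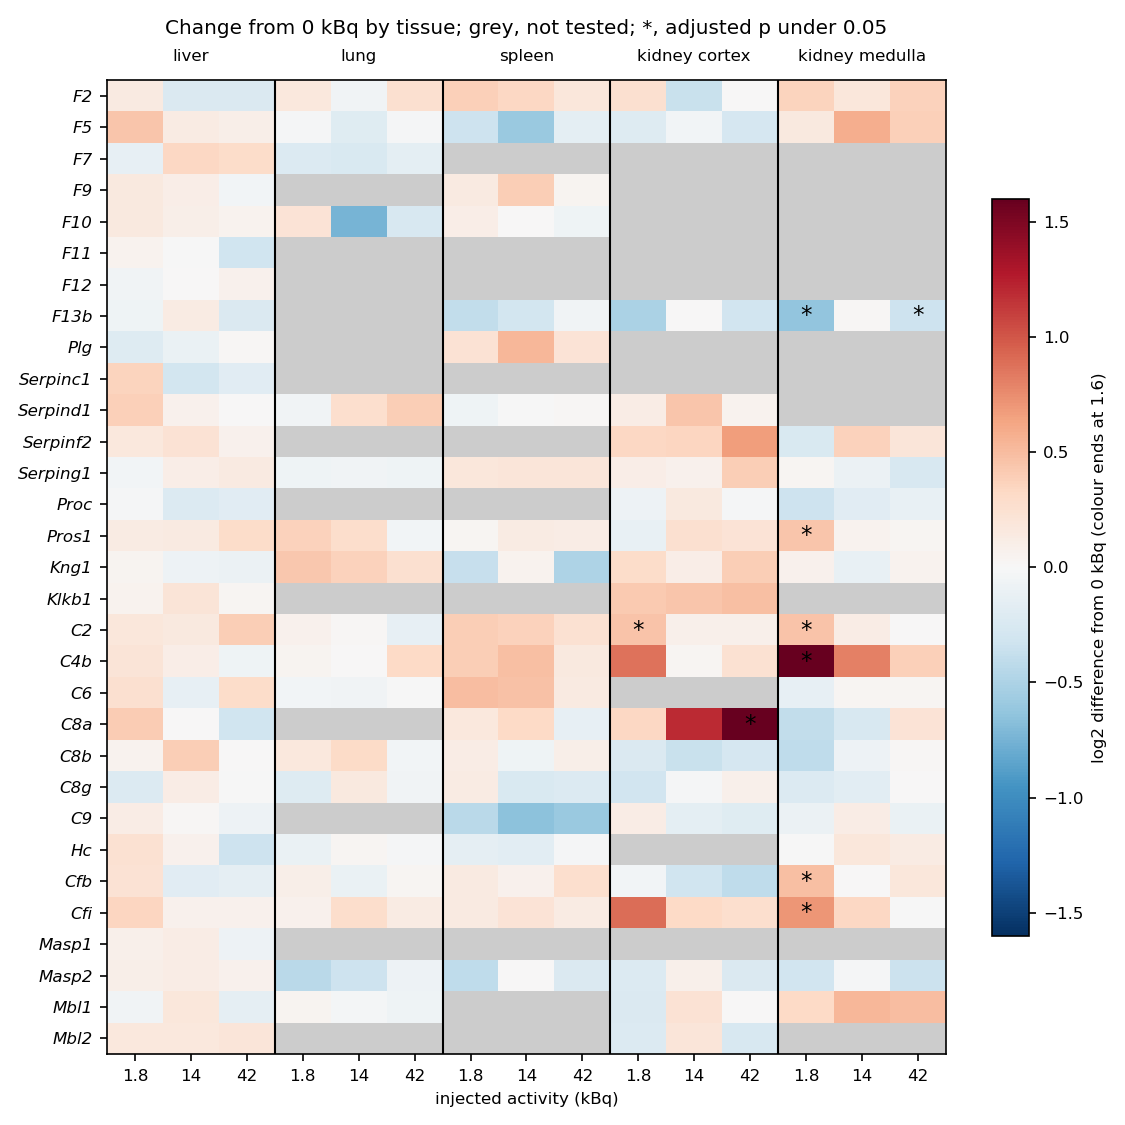
Log2 difference from 0 kBq (colour, red higher and blue lower at the activity, with the scale ending at 1.6) of the 31 measured genes (rows) at 3 activities in 5 tissues (columns), with grey for genes not tested in a tissue and an asterisk for an adjusted p under 0.05. The 9 asterisks are all in the kidney, 7 in medulla and 2 in cortex, and C4b in medulla and C8a in cortex are the darkest cells.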

How the data were processed

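The deposited table held an unnormalized intensity for each probe on each of 90 arrays, on a linear scale, with a detection p-value beside it. The authors also deposited processed intensity values, whose normalization is not given in the sources used here and which were used as an alternative. Illumina labelling of total RNA extracted with a column kit is stated per the labels' protocols.

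Background was corrected by normal-exponential convolution from the detection p-values with an offset of 16 (limma 3.58.1, R 4.3.3), followed by log2 and quantile normalization within a tissue. Probes with a detection p under 0.05 on at least 3 of 18 arrays were tested, with 1 mean per group (12 residual degrees of freedom), limma's eBayes with trend, two-sided tests and Benjamini-Hochberg adjustment over all probes. The tests were tried on simulated data. Differences between tissues were tested in 1 fit of all arrays. A fold against undetected arrays is a lower bound, written "at least", against their detection limit. The number of arrays limits the precision.

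A single gene symbol was annotated for 23978 of the 25697 probes, several for 0 and no symbol for 1719. Each gene is reported by its detected probe with the highest mean in the tissue. The members tested were 31 for liver (31 detected on all 18 arrays), 20 for medulla (13), 21 for cortex (12), 21 for spleen (9) and 18 for lung (10). The members named are those called with the largest differences (up to 10 in liver, 4 in each other tissue) and C4b. No liver member was called against 0 kBq, and the members named there, like others so marked, were chosen after their values were seen. From the further lists up to 3 called genes are named. The rule for the members uses symbols only, but members and lists were drawn up with earlier results of these data known.

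Deviations from the group means of same-numbered arrays correlated above 0.1 for all 3 pairs in spleen at 14 and 42 kBq and in kidney cortex at 1.8 kBq, and the numbers were taken to pair the arrays there. Alternatives were the fit without the 0.064 and 0.64 kBq arrays, scaling to the 75th percentile, no background correction, an offset of 50, other detection filters, the authors' values, any probe of a gene, the number as a block, and leaving out each array.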

Additional observations from a re-analysis of the deposited data

Results flagged for a closer look

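A total of 3 responses differed between tissues in limma's test of the difference itself. The response of C8a at 42 kBq against 0 kBq was 2.79 higher in kidney cortex (2.54) than in liver (-0.26), on the log2 scale with all arrays normalized together. It was -2.31 in kidney medulla (0.22) relative to kidney cortex (2.54). All 3 cortex arrays at 42 kBq were above all cortex arrays at 0 kBq. The response of C4b at 1.8 kBq against 0 kBq was 1.45 higher in kidney medulla (1.63) than in liver (0.18). With the arrays of any one replicate number left out, the number of such calls was 2 each time, in place of 3. Which calls these were is not given here. These 3 were the calls among 15 comparisons of tissues over 17 to 21 members each.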

How the results depend on the processing

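Without the 0.064 and 0.64 kBq arrays, with the shares of all probes given above, counts of called members moved most. They were then 4 at 1.8, 2 at 14 and 7 at 42 kBq in liver and 11 between 42 and 1.8 kBq. They were 1 in lung at 14 kBq, and 3 at 1.8 and 4 at 14 kBq in spleen. In kidney cortex they were 6, 1 and 4, and 7 between 42 and 1.8 kBq, and in kidney medulla 2 at 14 and 3 at 42 kBq and 8 between 42 and 1.8 kBq. Differences between tissues numbered 28 in that fit, 8 without background correction, 5 with an offset of 50 and 8 in the authors' values. These totals over all comparisons of tissues have no share of all probes beside them. They are therefore not read as a result about the members. Scaling to the 75th percentile gave 1 call in liver (Cfi, 3.37% of all probes called) and 1 in spleen (C2, 2.68%) at 1.8 kBq. In cortex it gave 0 at 1.8 kBq (2.12%) and 1 between 42 and 1.8 kBq (4.22%), and in medulla 0 at 42 kBq. The count in medulla at 42 kBq was also 0 without background correction, with no detection filter and in the authors' values. No detection filter gave 1 in cortex between 42 and 1.8 kBq (1.97% of all probes). The authors' values gave 2 in cortex at 42 kBq (C8a and Kng1, 1.71%), and any probe of a gene gave 3 in liver at 1.8 kBq (3.92%). A replicate block gave a count of 1 in liver (F5, 4.39% of all probes) and 2 in cortex (C2 and Cfi, 2.64%) at 1.8 kBq. No other count moved by over 1.5 times. In liver at 1.8 kBq the numbers did not meet the rule for pairing.

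With 1 array left out the counts ranged from 0 to 1 in liver between 42 and 1.8 kBq. In spleen they ranged from 0 to 1 at 1.8 kBq and at 14 kBq. C9 was called without array 2 at 1.8 kBq (1.77% of all probes called), and Plg without array 2 at 14 kBq (1.33%). Both probes were rarely detected in spleen, C9 on 5 of 18 arrays and Plg on 3. In cortex the counts ranged from 0 to 0 at 1.8 kBq and from 1 to 1 between 42 and 1.8 kBq. They ranged from 0 to 1 in medulla at 42 kBq and from 2 to 4 in medulla between 42 and 1.8 kBq. These ranges show how far the counts moved and are not read as a result about the members. The difference of C4b turned negative where it was near 0: in lung at 1.8 kBq to -0.0083 and at 14 kBq to -0.0081 with 75th percentile scaling, and with 1 array left out it ranged from -0.0390 to 0.0910 in lung at 1.8 kBq (also -0.0215), from -0.0754 to 0.0546 in lung at 14 kBq (also -0.0239 and -0.0079), and from -0.0419 to 0.0797 in cortex at 14 kBq. The cause of these changes was not tested. The calls of C4b, C2, Pros1 and F13b in medulla at 1.8 kBq and of C8a in cortex at 42 kBq each held in all 14 alternatives run on them.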

Other observations

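The arrays at 0.064 and 0.64 kBq, which belong to another array set than all others, gave the following levels of the leading genes. C8a in kidney cortex stood at 4.92, 5.10 and 5.89 at 0.064 kBq and at 5.75, 8.05 and 5.58 at 0.64 kBq. A single 0.64 kBq array thus lay in the range of the 42 kBq arrays. C4b in kidney medulla stood at 8.67, 8.43 and 9.88 at 0.064 kBq and at 10.07, 9.08 and 8.89 at 0.64 kBq. F13b in kidney medulla was tighter, at 10.91, 10.75 and 10.70 at 0.064 kBq and at 10.95, 10.72 and 10.83 at 0.64 kBq. C8a in liver stood at 11.34, 10.50 and 11.26 at 0.064 kBq and at 11.28, 11.99 and 11.34 at 0.64 kBq.

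Prox1, a homeodomain factor, was higher in kidney medulla at all 3 activities, by 1.21 ± 0.19 at 1.8 kBq, 1.14 ± 0.19 at 14 kBq and 1.13 ± 0.19 at 42 kBq (SE, limma adjusted p = 3.76e-05, 0.00256 and 0.000831). The 3 comparisons share their 0 kBq arrays.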
